A study of Mus musculus with 12 samples.

Results

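The collagen gene family of mouse was followed in partially reprogrammed cells treated with ascorbic acid, kinase inhibitors or both. Members were taken by symbol, as every gene named Col followed by a number, the letter a and a number. The tables held 41 such genes among 20325. By type number, 9 were classed as fibrillar (types I, II, III, V and XI), 6 as type IV and 26 as other types. Of the 41, 26 had enough reads to be tested for a change, that is at least 10 counts in at least 3 libraries. The same held for 13400 genes in all. The tested members were 8 fibrillar, 4 type IV and 14 other genes.

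RNA sequencing was done on pre-iPSCs, clonal lines that stop short of pluripotency after mouse embryonic fibroblasts carrying a Nanog-GFP reporter receive pMX retroviruses for Oct4, Sox2, c-Myc and Klf4. All 4 conditions shared this background. The cells were kept on irradiated feeder fibroblasts and were treated without feeders for 48 h with DMSO, the vehicle, with AA (ascorbic acid, vitamin C, at 50 µg/ml), with 2i (the MEK inhibitor PD0325901 at 1 µM and the GSK inhibitor CHIR99021 at 3 µM) or with AA+2i. Each condition had 3 replicates, called A, B and C, harvested on day 2, described as biological triplicates with no note on whether they were separate cultures or lines, so p-values measure the spread between these libraries. The summed expected counts ranged from 16173322 to 54392719 per library, and DMSO B and AA B were the deepest.

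Collagens are the rope-like proteins of the extracellular matrix, wound as a helix of chains in which glycine opens every triplet, written Gly-X-Y. Fibrillar collagens pack into the cables of connective tissue, whereas type IV collagen forms the mesh of basement membranes. Many of the remaining types bind fibrils, span membranes or make finer networks. Ascorbic acid is a cofactor of the prolyl and lysyl hydroxylases that modify collagen chains, and stromal cells such as fibroblasts are rich sources of collagen.

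The coding sequences in the mm9 annotation (GENCODE) show what the classes share. Every fibrillar gene held 1 long uninterrupted run of Gly-X-Y triplets, from 337 to 344 triplets over the 9 genes. The longest run in the 6 type IV genes was 39 to 66 triplets, because breaks interrupt their helix, and in the 26 others it was 28 to 217 triplets. The first 30 codons of the longest run are printed for 2 fibrillar and 2 type IV chains, spliced, 5′ to 3′. Capitals mark the glycine codon that opens each triplet, and glycine codons at X or Y are in lower case. They are shown because the glycine codons all begin with GG, and transcript GC content went with the spread between replicates given below. The Col1a1 stretch lies in exons 6 to 8 (chr11:94800765-94801253, plus strand), that of Col3a1 in exons 5 to 6 (chr1:45380607-45382258, plus strand), that of Col4a2 in exons 29 to 30 (chr8:11429447-11431247, plus strand) and that of Col4a5 in exons 41 to 44 (chrX:138091368-138101410, plus strand).
Col1a1: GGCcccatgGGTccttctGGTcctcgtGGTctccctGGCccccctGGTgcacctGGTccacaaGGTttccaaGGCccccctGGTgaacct
Col3a1: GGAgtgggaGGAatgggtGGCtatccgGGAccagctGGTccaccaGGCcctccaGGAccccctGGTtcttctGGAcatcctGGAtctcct
Col4a2: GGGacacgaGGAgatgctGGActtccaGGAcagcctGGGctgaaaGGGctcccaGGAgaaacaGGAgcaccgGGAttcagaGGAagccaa
Col4a5: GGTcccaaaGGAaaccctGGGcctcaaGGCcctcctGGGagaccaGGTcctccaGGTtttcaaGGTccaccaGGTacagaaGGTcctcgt

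Members with the same repeat differed in how they spelled it. The third codon positions of the whole coding sequence were 42.3% G or C in Col1a1 but 28.4% in Col3a1, and 51.0% in Col4a2 but 28.9% in Col4a5. Over whole transcripts the 26 tested members had a median GC content of 57.35%, against 50.5% for all tested genes, and ranged from 46.8% in Col8a1 to 63.4% in Col11a2.

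This property moved with the libraries. The libraries differed in how strongly read counts depended on GC content: at 65% GC the fitted deviation in log2 CPM (counts scaled to the library total) was −2.41 in DMSO A and −2.26 in AA A, and 1.80 in AA+2i C. The median deviation of the 26 members from their 12-library mean was −1.59 in DMSO A, −1.38 in AA A and 1.45 in 2i C, whereas the median of all tested genes lay between −0.01 and 0.02 in every library. DMSO A was the lowest library for this family, and DMSO B, also untreated, was at 0.97, below 2i C alone. The SD of log2 CPM within a condition had a median of 0.94 over the 26 members and 0.41 over all tested genes. It was 1.2 for the 13 members of higher GC content and 0.51 for the 13 others, so the collagens with GC-poorer transcripts had the smaller spread. The calls were therefore also counted after each library's GC dependence was entered as an offset (the GC correction). Single collagen genes are given with it where it changed a call. The fitted deviations were not balanced over conditions. At 65% GC they were −2.41, 0.61 and −0.30 in DMSO A, B and C and 0.76, −0.20 and 1.80 in AA+2i. The correction thus also moves fold changes of GC-rich genes, and a treatment effect that follows GC content cannot be told apart from library GC dependence.

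**Figure D1:**
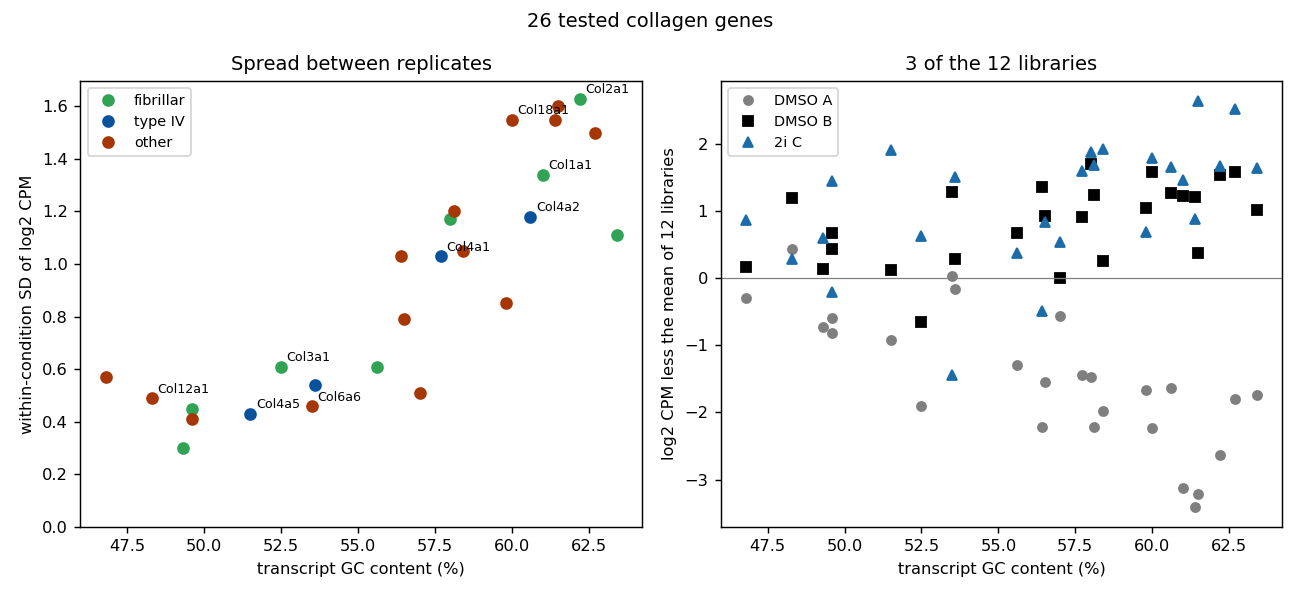
Left, the SD of log2 CPM within a condition (y) against transcript GC content in percent (x) for the 26 tested collagen genes, coloured by class. Right, log2 CPM less the 12-library mean (y) against GC content (x) for the same genes in DMSO A, DMSO B and 2i C. The SD runs from 0.30 to 1.63 and the GC-rich genes hold the higher values, and the DMSO A points fall with GC content while those of DMSO B and 2i C mostly lie above 0.

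Collagen transcripts were scarce in these cells. In DMSO, 9 of 41 members had a mean of at least 1 TPM (a share of transcripts, scaled by transcript length), against 57.8% of all genes. The 3 most abundant were Col18a1, Col4a1 and Col4a2, with 12-library means of 28.8, 13.7 and 10.2 TPM. Col18a1, a basement membrane chain whose cut end is endostatin, ranked 5410 of 20325 genes, and Col4a1 and Col4a2, the chains of the common basement membrane network, ranked 7767 and 8593. Col4a5 followed at 7.19 TPM, then Col6a1 at 3.59 and Col6a6 at 2.74 TPM, both chains of the beaded filaments of type VI collagen. The 15 members that were not tested never passed 21 counts or 0.29 TPM in any library, and Col13a1, a membrane-spanning collagen, was at 0 in all 12.

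The whole family summed to 20.1, 161 and 69.5 TPM in DMSO A, B and C. It summed to 27.7, 69.9 and 131 TPM in AA, to 48.7, 61.6 and 155 TPM in 2i, and to 62.8, 42 and 78.9 TPM in AA+2i. These sums overlapped among all 4 conditions, and the lowest and the highest were both DMSO libraries. Col18a1 supplied from 13.9% of the sum in AA+2i B to 58.7% in AA C.

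**Figure D2:**
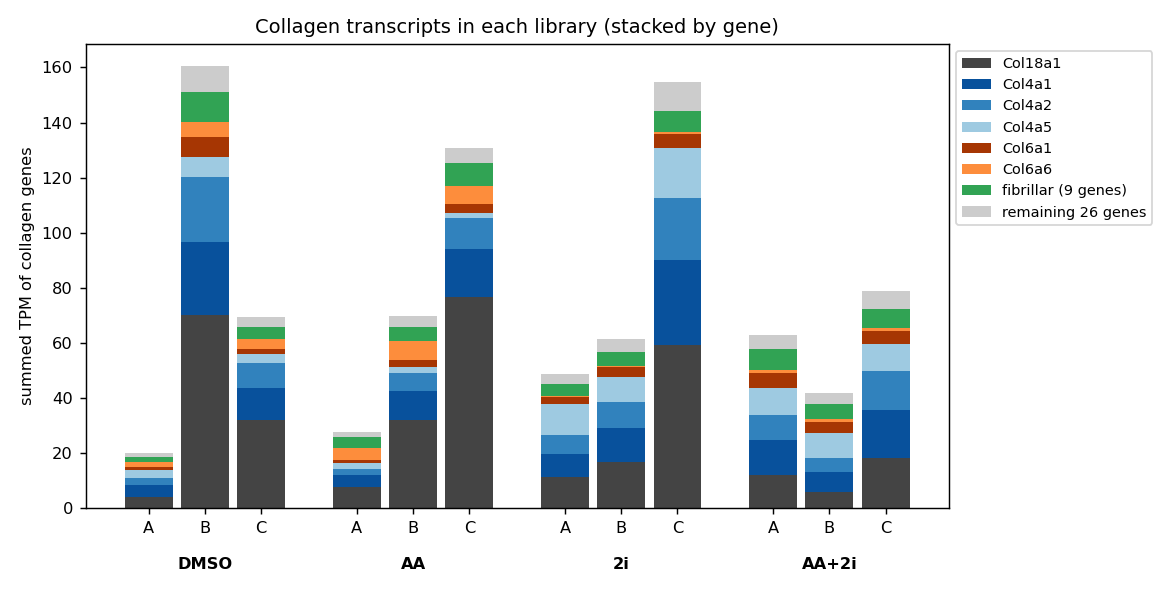
Summed TPM of the 41 collagen genes (y) in each library (x), stacked by gene, with the 9 fibrillar genes as 1 block and the genes not named otherwise as another. DMSO A holds 20.1 and DMSO B 161 TPM, Col18a1 and the type IV chains make up most of each bar, and the Col4a5 block is deeper in 2i and AA+2i than in AA.

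Most of the listed fibroblast markers were near the floor. Of 12 fibroblast markers, 9 were below 1 TPM in every library, including Pdgfra, Pdgfrb, Dcn and Fap, and Lum and Dpt were at 0 in all 12. The 12 markers summed to 9.01 to 12.9 TPM in DMSO, 11.3 to 19.6 in AA, 4.25 to 5.09 in 2i and 4.28 to 7.8 in AA+2i, and Thy1, a surface glycoprotein, had means of 5.13, 12.6, 1.15 and 3.8 TPM in that order. Other markers lay the other way in AA, with means in DMSO and AA of 3.13 and 1.63 TPM for Prrx1 and 2.36 and 1.33 TPM for Twist1, and the median log2 fold change of the 6 tested markers with AA was −0.86. None of the 6 was called against DMSO, whereas the GC correction called Thy1 lower with 2i (adjusted p = 0.00765) and Twist1 lower with AA+2i (adjusted p = 0.0262). Of 8 markers of parietal or primitive endoderm, a strong maker of type IV collagen, 6 were below 1 TPM in every library, and the sum was 3.58 to 7.63 TPM in DMSO, 6.25 to 7.37 in AA, 2.59 to 3.03 in 2i and 4.05 to 5.23 in AA+2i. The 4 smooth muscle markers summed to 2.3 to 8.13 TPM over the 12 libraries. The epithelial list, of 5 genes with Cdh1 and Epcam among them, summed to 99.3 to 160 TPM in DMSO, 222 to 365 in AA, 121 to 153 in 2i and 369 to 425 in AA+2i. Its members differed. In the same order the means were 43.2, 92.4, 53.4 and 123 TPM for Cdh1 and 87.7, 166, 64.6 and 163 TPM for Epcam. Those of Cldn4 were 7.49, 19.9, 15.2 and 111 TPM. Fut4 did not pass 0.12 TPM in any library, and Cldn6 did not pass 1.03 TPM. The 4 pluripotency genes Nanog, Esrrb, Zfp42 and Dppa5a summed to 41.2 to 89.3 TPM in DMSO, 1260 to 1700 in AA, 26.8 to 34 in 2i and 557 to 814 in AA+2i. Dppa5a made up most of these sums, with means of 53.2, 1440, 23.4 and 674 TPM in that order. Nanog had another order, with means of 4.41, 17.8, 6.08 and 36.6 TPM, and Esrrb was likewise highest in AA+2i, at 2.53 against 0.687 TPM in AA. The part of these shifts in the collagen values was not tested, and in bulk RNA fewer cells of a type and less RNA per cell cannot be told apart.

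Across the tested members, few changes were called. With AA alone 0 rose and 0 fell (edgeR quasi-likelihood test, Benjamini-Hochberg adjusted over all tested genes, below 0.05), where 0.866% of all tested genes rose and 0.47% fell. Without adjustment 4 members had p below 0.05, as did 1263 genes. With 2i, 1 member rose and 1 fell, against 1.59% and 2.83% of all tested genes. With AA+2i, 2 members rose and 1 fell against 3.93% and 4.41%. Over 26 members these backgrounds come to about 1 gene or fewer in each direction, which is near the counts of members.

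The typical change was small. Over the 26 members the median log2 fold change against DMSO was −0.22 in AA, 0.40 in 2i and 0.37 in AA+2i, where the medians of all tested genes were −0.01, −0.02 and −0.02. After the GC correction the medians of the members were −0.42, 0.10 and −0.08, so the sign for AA+2i was not kept. The GC correction also raised the number of calls among all tested genes, to 2.52% higher and 1.63% lower for AA. The shares became 4.62% and 7.68% for 2i, and 9.01% and 10.7% for AA+2i. Among members the correction called 0 higher and 1 lower for AA, 3 higher and 1 lower for 2i, and 2 higher and 5 lower for AA+2i. The split for AA+2i thus moved from 2 higher and 1 lower to 2 higher and 5 lower.

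**Figure D3:**
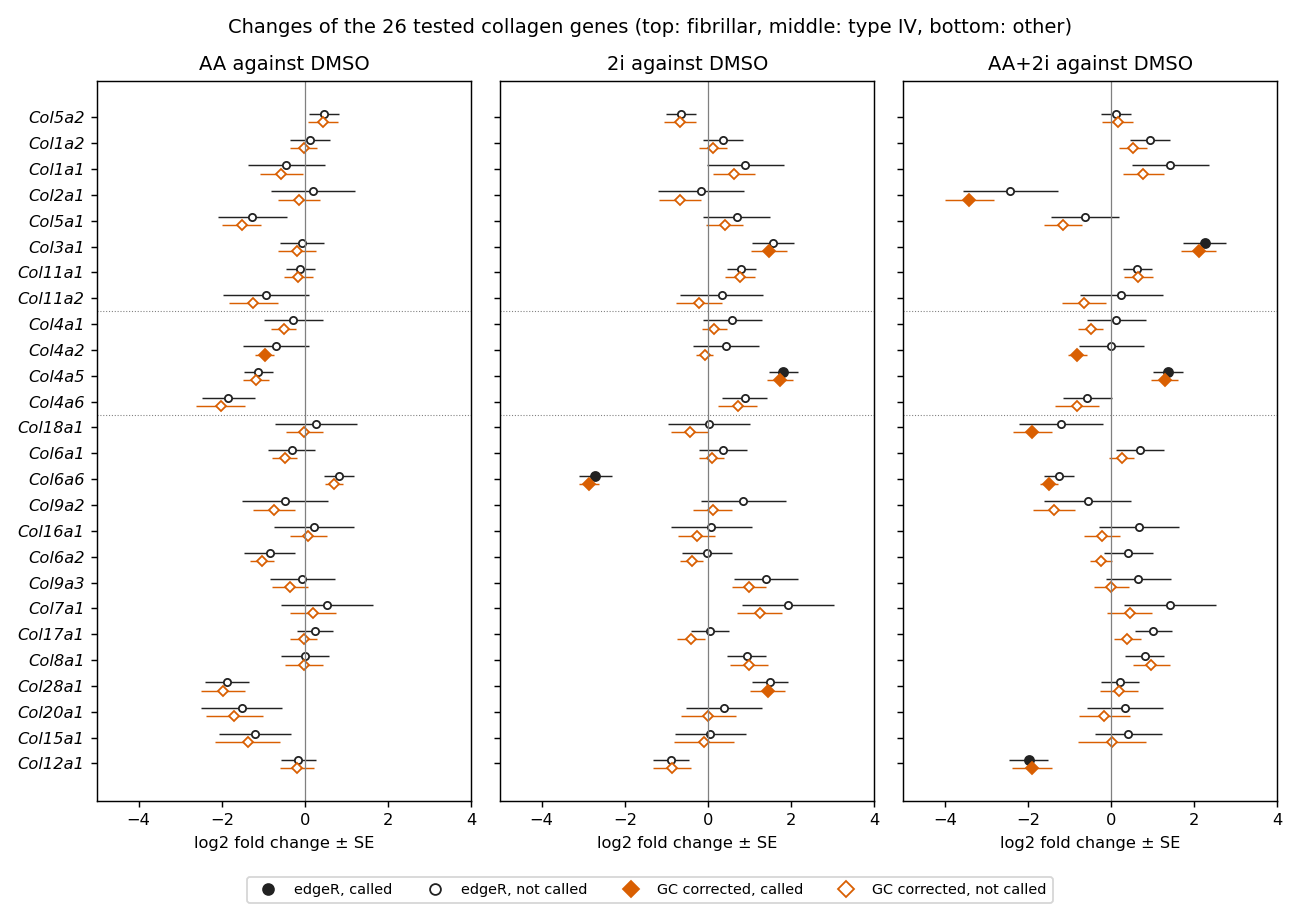
Log2 fold change against DMSO (x, with the standard error as a bar) for the 26 tested collagen genes (y, by class, the more abundant at the top of each class) with AA, 2i and AA+2i. Circles are the edgeR fit and diamonds the fit with GC correction, filled where called. In the 2i panel the filled circles are Col4a5 at 1.81 and Col6a6 at −2.71, and GC-rich genes such as Col2a1 and Col18a1 carry the widest bars without the correction.

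Among the type IV chains, Col4a5 rose with 2i. Col4a5 encodes the α5 chain, which joins specialised basement membranes such as those of the kidney glomerulus. It lies on the X chromosome (chrX:137909928-138123778, plus strand, mm9) and has a GC content of 51.5%, below that of Col4a1 (57.7%) and Col4a2 (60.6%). Its level was 2.95, 7.27 and 3.07 TPM in DMSO A, B and C, and 2.12, 2.02 and 1.67 TPM in AA. In 2i it was 11.26, 9.23 and 18.24 TPM, and in AA+2i 9.83, 8.88 and 9.78 TPM. All 6 libraries with the inhibitors lay above all 6 without them, and the AA libraries lay below every DMSO library.

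The rise of Col4a5 was 3.5-fold with 2i (log2 1.81 ± 0.35 SE, n = 3, adjusted p = 0.0152) and 2.58-fold with AA+2i against DMSO (log2 1.37 ± 0.35, adjusted p = 0.0344). With AA alone it was 2.17-fold lower (log2 −1.12 ± 0.35), which was not called (adjusted p = 0.215). The addition of 2i to AA raised it 5.62-fold (log2 2.49 ± 0.36, adjusted p = 0.00251), whereas AA+2i against 2i gave a log2 difference of −0.44 ± 0.34 that was not called. The interaction of AA and 2i, the change with both less the sum of the separate changes, was 0.68 ± 0.48 on the log2 scale and was not called. After the GC correction these 3 rises were 1.73 (2i against DMSO), 1.29 (AA+2i against DMSO) and 2.47 (AA+2i against AA), and all were called. The rise with 2i was no longer called without DMSO A, without DMSO C or without 2i C, with adjusted p up to 0.0572, or when only DMSO and 2i were fitted (adjusted p = 0.0989). The rise with AA+2i against DMSO lost its call with limma (adjusted p = 0.0691), when only DMSO and AA+2i were fitted (adjusted p = 0.0759) and in 6 of 12 fits that left out 1 library.

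Col4a6 sits head to head with Col4a5, on the minus strand of the X chromosome (chrX:137599946-137908619), with starts 1309 bp apart, and its α6 chain pairs with α5 in some basement membranes. It was far scarcer, from 0.01 TPM in AA B to 0.24 TPM in 2i C and 2 to 19 counts per library. In DMSO it had 0.07, 0.13 and 0.14 TPM, and in AA 0.03, 0.01 and 0.06 TPM. In 2i it had 0.16, 0.15 and 0.24 TPM and in AA+2i 0.04, 0.05 and 0.10 TPM. The DMSO, AA and 2i libraries did not overlap with each other, and those of AA+2i overlapped DMSO and AA. None of its differences was called, the nearest being AA against DMSO at log2 −1.84 ± 0.64 (adjusted p = 0.295). Col4a5 exceeded Col4a6 by 21.9 to 246 times in TPM.

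The windows around the annotated starts of both genes are printed with that of Col6a6, because Col4a5 and Col6a6 gave the calls that held in the most settings and Col4a6 shares the intergenic region with Col4a5. They are RefSeq sequences on GRCm38.p6, a later build than that of the counts, from 250 bases before the start to 50 after, on the strand of the gene. Capitals mark GC boxes (GGGCGG on either strand) and CCAAT on either strand.
Col4a5, chrX:141475169-141475468, plus strand: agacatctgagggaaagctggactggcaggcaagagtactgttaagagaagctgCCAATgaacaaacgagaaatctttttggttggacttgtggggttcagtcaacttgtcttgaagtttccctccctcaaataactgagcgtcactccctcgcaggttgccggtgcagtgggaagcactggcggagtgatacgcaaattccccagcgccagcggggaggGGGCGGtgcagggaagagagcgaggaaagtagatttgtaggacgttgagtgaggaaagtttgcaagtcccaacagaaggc
Col4a6, chrX:141474027-141474326, minus strand: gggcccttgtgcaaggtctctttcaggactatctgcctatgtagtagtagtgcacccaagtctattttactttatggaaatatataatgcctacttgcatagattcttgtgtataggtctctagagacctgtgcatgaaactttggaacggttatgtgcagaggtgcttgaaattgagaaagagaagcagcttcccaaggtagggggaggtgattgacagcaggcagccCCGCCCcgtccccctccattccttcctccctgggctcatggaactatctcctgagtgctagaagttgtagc
Col6a6, chr9:105828036-105828335, minus strand: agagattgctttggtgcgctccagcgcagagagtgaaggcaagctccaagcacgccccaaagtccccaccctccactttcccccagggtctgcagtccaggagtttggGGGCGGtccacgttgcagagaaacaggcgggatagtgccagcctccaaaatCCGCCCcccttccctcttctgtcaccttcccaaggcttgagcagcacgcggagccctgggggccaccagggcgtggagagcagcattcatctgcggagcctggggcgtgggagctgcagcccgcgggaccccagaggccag

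The Col4a5 window held 1 GC box, whose first base is 30 bases before the start, and 1 CCAAT. The Col4a6 window held 1 GC box at 21 bases before the start, and the Col6a6 window held 2, at 142 and 91 bases before it. A RefSeq window was listed for 33 of 41 members. GC boxes occurred in 21 of these 33 and in 35.9% of all 27025 windows, and CCAAT in 12 of 33 and in 37.9%. The TATA box TATAAA occurred in 5 of 33 members and 14.2% of all windows, the TCF/LEF motif TCAAAG in 8 of 33 and 16.2%, and the AP-1 motif TGANTCA in 1 of 33 and 7.93%, each on either strand. These letter matches describe the windows and say nothing of binding. The median GC content was 60.3% over the member windows and 52.7% over all.

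Col4a1 and Col4a2 form the common network together and start 21 bp apart on opposite strands of chromosome 8. Their levels followed each other across libraries, with a Col4a1 to Col4a2 ratio in TPM between 1.13 and 2.25. This course was not particular to the pair. In DMSO A, DMSO B and 2i C, log2 CPM less the 12-library mean was −1.63, 1.26 and 1.65 for Col4a2. It was −1.47, 1.69 and 1.87 for Col5a1 on chromosome 2, but 0.43, 1.19 and 0.28 for Col12a1. Col4a1 had 4.32, 26.60 and 11.85 TPM in DMSO, 4.43, 10.75 and 17.25 in AA, 8.43, 12.55 and 31.05 in 2i, and 12.82, 7.27 and 17.61 in AA+2i. Col4a2 had 2.63, 23.58 and 9.10 TPM in DMSO, 1.97, 6.48 and 11.35 in AA, 6.67, 9.32 and 22.50 in 2i, and 9, 5.32 and 13.90 in AA+2i. Both genes overlapped between all conditions and neither was called in the edgeR fit. Against DMSO the log2 fold changes of Col4a2 were −0.70 ± 0.80 for AA, 0.43 ± 0.80 for 2i and 0.01 ± 0.79 for AA+2i. With the GC correction its standard error fell to 0.22 and its estimates moved as well, for AA+2i from 0.01 to −0.81. It was then called lower with AA (log2 −0.97, adjusted p = 0.0268) and with AA+2i (log2 −0.81, adjusted p = 0.02). Its TPM values overlapped in both comparisons.

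Relative to Col4a1 within the same library, Col4a5 shifted. The Col4a5 to Col4a1 ratio in TPM was 0.683, 0.273 and 0.259 in DMSO and 0.479, 0.188 and 0.0968 in AA. It was 1.34, 0.735 and 0.587 in 2i and 0.767, 1.22 and 0.555 in AA+2i. The letter A libraries of DMSO and AA, in which GC-rich transcripts were under-represented, held the highest ratios of their conditions, and the 2i and AA+2i libraries overlapped DMSO only through DMSO A. Col4a3 and Col4a4, the partners of Col4a5 in the glomerular network, did not pass 10 and 4 counts in any library and were not tested.

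Among the chains of type VI collagen, Col6a6 moved opposite to Col4a5. Col6a6 encodes the α6 chain (chr9:105591747-105730415, minus strand, mm9), a relative of the α3 chain, and has a GC content of 53.5%. It had 1.85, 5.28 and 3.29 TPM in DMSO A, B and C, and 4.13, 6.75 and 6.59 TPM in AA. In 2i it had 0.40, 0.39 and 0.57 TPM, and in AA+2i 1.35, 1.00 and 1.31 TPM. The 2i, AA+2i and DMSO libraries did not overlap with one another, and the AA libraries overlapped those of DMSO.

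The fall of Col6a6 with 2i was 6.52-fold (log2 −2.71 ± 0.39 SE, n = 3, adjusted p = 0.00299), and the addition of 2i to AA lowered it 4.2-fold (log2 −2.07 ± 0.37, adjusted p = 0.00781). Both calls held in every alternative fit and without any 1 of the 12 libraries, with adjusted p up to 0.0447. Against DMSO, AA+2i gave a 2.38-fold lower level that just missed the threshold (log2 −1.25 ± 0.36, adjusted p = 0.0592) and was called with the GC correction (log2 −1.49, adjusted p = 0.00075). AA alone gave a log2 difference of 0.82 ± 0.36 (adjusted p = 0.49). AA+2i against 2i gave 1.45 ± 0.38 (adjusted p = 0.111), and 1.38 with the GC correction (adjusted p = 0.00706), where it was called. The interaction was 0.64 ± 0.51 and was not called.

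The other type VI chains kept no such pattern. Col6a1 and Col6a2, the α1 and α2 chains, lie 85161 bp apart on the minus strand of chromosome 10. Col6a1 had 1.07, 7.30 and 2.07 TPM in DMSO, 1.38, 2.82 and 3.48 in AA, 2.62, 3.37 and 5.02 in 2i, and 5.31, 3.95 and 4.67 in AA+2i. For both genes AA+2i lay above AA and the other comparisons given here overlapped, and no difference of either gene was called. The Col6a6 to Col6a1 ratio in TPM was 0.723 to 1.73 in DMSO and 1.89 to 2.99 in AA, but 0.114 to 0.153 in 2i and 0.253 to 0.281 in AA+2i. The ratio of Col6a1 to Col6a2 stayed between 3.09 and 7.26.

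**Figure D4:**
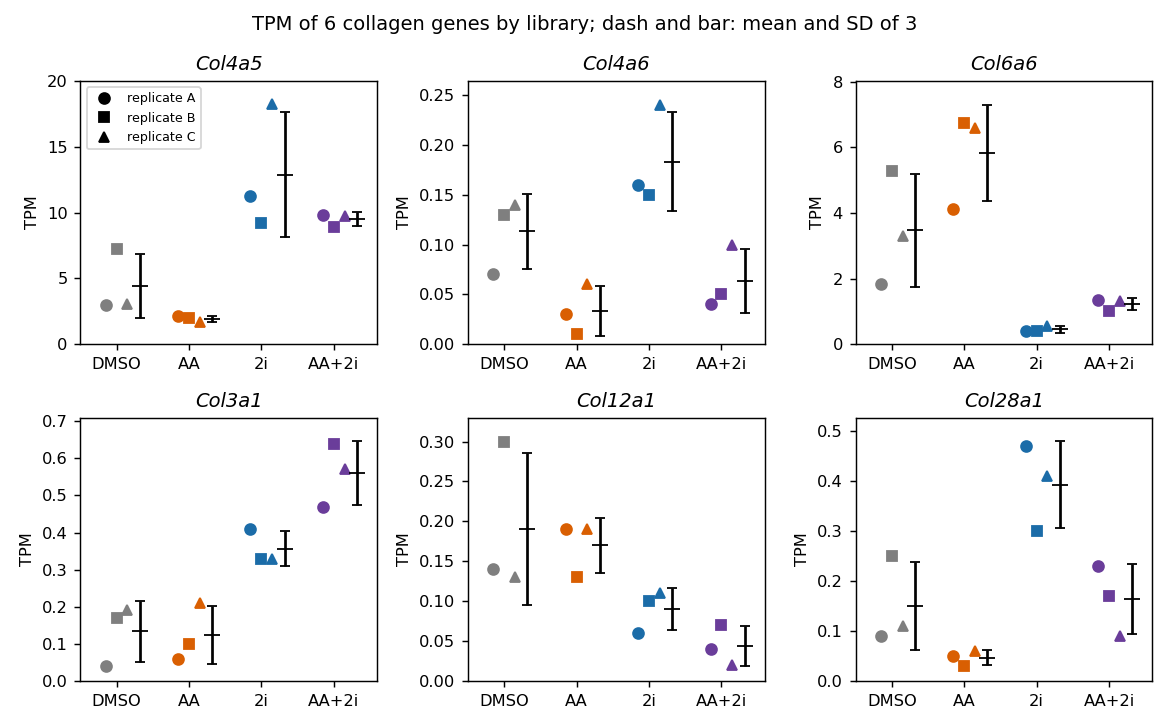
TPM (y, linear, from 0) of Col4a5, Col4a6, Col6a6, Col3a1, Col12a1 and Col28a1 in each library (marker shape, replicate A, B or C) by condition (x), with the mean and SD of 3 as a dash and bar. Col4a5 lies at 8.88 TPM or above in all 6 libraries with 2i and at 7.27 or below in the others, Col6a6 shows the opposite order, and the remaining 4 genes stay below 1 TPM.

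Among the fibrillar chains, Col3a1 was higher with AA+2i. Type III collagen is found with type I in elastic tissues, and its gene (chr1:45368383-45406551, plus strand) has a GC content of 52.5%. It had 0.04, 0.17 and 0.19 TPM in DMSO A, B and C, 0.06, 0.10 and 0.21 TPM in AA, 0.41, 0.33 and 0.33 TPM in 2i and 0.47, 0.64 and 0.57 TPM in AA+2i. These are 2 to 45 counts per library. The libraries with 2i all lay above those without it, and AA+2i lay above 2i.

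The rise of Col3a1 was 4.75-fold with AA+2i against DMSO (log2 2.25 ± 0.51 SE, n = 3, adjusted p = 0.0205) and 5.02-fold with AA+2i against AA (log2 2.33 ± 0.50, adjusted p = 0.0193). With 2i alone it was 2.94-fold higher (log2 1.56 ± 0.51), which was not called (adjusted p = 0.136) except with the GC correction, with DESeq2 and with the letter as a block. The rise with AA+2i against DMSO held in all 8 alternatives but lost its call without DMSO A, DMSO B, AA+2i B or AA+2i C (adjusted p up to 0.0684). The rise against AA lost its call without AA B, AA+2i B or AA+2i C (adjusted p up to 0.103). Col5a2, its neighbour on the opposite strand 24614 bp away and a chain that regulates fibril width, took another course. It had 0.88, 3.00 and 1.49 TPM in DMSO, 2.29, 2.03 and 2.68 in AA, 0.78, 0.91 and 1.18 in 2i and 2.00, 1.60 and 1.39 in AA+2i. Its libraries in 2i lay below those of AA and AA+2i, and no difference was called (AA+2i against 2i, log2 0.80 ± 0.36, adjusted p = 0.52). The Col3a1 to Col5a2 ratio in TPM was 0.0262 to 0.128 in the 6 libraries without 2i and 0.235 to 0.526 in the 6 with it.

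The type I chains, the bulk of bone and tendon, were low and erratic. Col1a1 had 0.05, 1.97 and 0.18 TPM in DMSO, 0.15, 0.55 and 0.78 in AA, 0.79, 0.96 and 1.71 in 2i and 2.14, 0.91 and 1.88 in AA+2i. Col1a2 had 0.54, 2.64 and 0.63 TPM in DMSO, 0.90, 1.36 and 1.63 in AA, 1.26, 1.29 and 1.56 in 2i and 2.05, 2.01 and 2.01 in AA+2i. For both genes AA+2i lay above AA, and the DMSO libraries, of which B was by far the highest, overlapped every treatment. Neither was called, and AA+2i against DMSO gave log2 1.43 ± 0.92 for Col1a1 and 0.94 ± 0.48 for Col1a2. Type I collagen takes more α1 than α2 chains, yet the Col1a1 to Col1a2 ratio in TPM ran from 0.0926 in DMSO A to 1.1 in 2i C. The GC contents of the transcripts were 61.0% and 55.6%.

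Col2a1, the cartilage collagen, was lowest in AA+2i. It had 0.05, 1.62 and 1.47 TPM in DMSO, 0.29, 0.67 and 2.43 in AA, 0.43, 0.60 and 1.34 in 2i and 0.09, 0.05 and 0.33 in AA+2i. AA+2i lay below 2i in every library and overlapped AA and DMSO through their letter A libraries. Its GC content of 62.2% came with the widest spread of the family (SD 1.63), and the 5.34-fold lower level with AA+2i (log2 −2.42 ± 1.14) was not called (adjusted p = 0.214). With the GC correction the difference from DMSO was −3.41 ± 0.59 (adjusted p = 0.00201), that from 2i −2.72 ± 0.59 (adjusted p = 0.0222) and that from AA −3.26 ± 0.59 (adjusted p = 0.00305), all called.

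Col18a1 spread widely as well. It had 4.16, 70.01 and 31.90 TPM in DMSO, 7.81, 31.89 and 76.81 in AA, 11.37, 16.70 and 59.10 in 2i and 12.04, 5.82 and 18.22 in AA+2i. The libraries of all 4 conditions overlapped, and within DMSO alone the highest was many times the lowest. The log2 fold change with AA+2i was −1.21 ± 1.01 (adjusted p = 0.423) and −1.90 ± 0.47 with the GC correction (adjusted p = 0.0142), where AA+2i against AA was called as well (log2 −1.89, adjusted p = 0.0176). Its libraries with AA+2i overlapped those of DMSO and AA in both cases.

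Col12a1 and Col28a1 were called at very low levels. Col12a1, which decorates the surface of fibrils, had 0.14, 0.30 and 0.13 TPM in DMSO, 0.19, 0.13 and 0.19 in AA, 0.06, 0.10 and 0.11 in 2i and 0.04, 0.07 and 0.02 in AA+2i, from 3 to 80 counts per library. Libraries with 2i lay below those without it. It fell 3.95-fold with AA+2i against DMSO (log2 −1.98 ± 0.47, adjusted p = 0.0268) and 3.52-fold against AA (log2 −1.82 ± 0.47, adjusted p = 0.0461). The former lost its call without AA+2i A, DMSO B or AA+2i C (adjusted p up to 0.11). It was also lost with limma and when only DMSO and AA+2i were fitted (adjusted p up to 0.152). The latter lost its call with limma, without a count filter and in 10 of 12 fits that left out 1 library.

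Col28a1, a small beaded collagen with von Willebrand factor A domains, had 0.09, 0.25 and 0.11 TPM in DMSO, 0.05, 0.03 and 0.06 in AA, 0.47, 0.30 and 0.41 in 2i and 0.23, 0.17 and 0.09 in AA+2i. It was highest in 2i and lowest in AA, neither of which overlapped DMSO. The addition of 2i to AA raised it 4.27-fold (log2 2.09 ± 0.53, adjusted p = 0.0421), a call that was lost with limma, without a count filter and in 10 of 12 fits that left out 1 library. Against DMSO, 2i gave 1.49 ± 0.44 (adjusted p = 0.0902), which was called with the GC correction (log2 1.44 ± 0.42, adjusted p = 0.0444), and AA gave −1.88 ± 0.53 (adjusted p = 0.152). Its counts were 2 to 23.9 per library.

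Col7a1, the anchoring fibril collagen of skin, had the highest log2 fold change of any member with 2i, 1.93 ± 1.11, which was not called (adjusted p = 0.439), with 0.01 to 0.41 TPM in DMSO and 0.18 to 1.46 TPM in 2i. Col9a2, which coats cartilage fibrils, ran from 0.11 TPM in AA A to 3.21 TPM in 2i C. Neither separated any treatment from DMSO.

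The added effect of each treatment on top of the other was compared within the same fit. For AA+2i against AA, 3 members rose (Col4a5, Col3a1 and Col28a1) and 2 fell (Col6a6 and Col12a1), against 2.81% and 3.29% of all tested genes, and the median of the 26 members was 0.79 against −0.01 for all. With the GC correction 3 rose and 4 fell, against 6.61% and 8.55%. For AA+2i against 2i, 0 rose and 0 fell (background 0.761% and 0.149%), although 5 members had an unadjusted p below 0.05, as did 1277 genes. The GC correction called Col6a6 higher and Col2a1 lower there, against 3.31% and 1.35% of genes, and DESeq2 called 1 member. The comparisons share the AA+2i libraries, and those with DMSO share the DMSO libraries. No member was called in the interaction, where 0.0149% of genes were called higher and 0% lower with and without the GC correction. At an unadjusted p below 0.05 there were 0 members with DESeq2 or with edgeR uncorrected, and 309 genes with the latter. The GC correction gave 3 members (Col18a1, Col2a1 and Col6a2) and 665 genes. The letter as a block gave 1 member and 639 genes, and both together gave 4 members and 1383 genes.

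The machinery that makes, secretes, crosslinks and degrades collagen was read from a list of 70 genes, of which 69 were in the tables and 57 were tested. With AA, the cofactor of its hydroxylases, 0 of the 57 rose and 0 fell. The shares of all tested genes were the 0.866% and 0.47% given above. In 2i 1 rose and 4 fell (1.59% and 2.83% of all tested genes), and in AA+2i 2 rose and 5 fell (3.93% and 4.41%). Their median log2 fold changes were −0.31, −0.21 and −0.34 in that order. After the GC correction 1 of the 57 was higher (Loxl1) and 2 were lower (Bmp1 and Tll1) for AA, beside 2.52% and 1.63% of all tested genes. It gave 3 higher and 8 lower for 2i (4.62% and 7.68%), and 3 higher and 19 lower for AA+2i (9.01% and 10.7%).

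Of the 17 tested hydroxylation and folding genes, 1 was called in the comparisons with DMSO. The GC correction called 2 lower with 2i (Leprel4 and P4ha2), beside 7.68% of all tested genes. It called 5 lower with AA+2i (Fkbp10, Leprel1, Leprel4, P4ha1 and P4ha2), beside 10.7%. P4ha1, a catalytic subunit of prolyl hydroxylase, had 69.98, 84.35 and 45.46 TPM in DMSO and 31.95, 32.69 and 17.86 TPM in AA+2i, without overlap. It fell 2.11-fold (log2 −1.08 ± 0.30, adjusted p = 0.0475), and the call was lost with limma, without a count filter, when only DMSO and AA+2i were fitted (adjusted p up to 0.0797) and in 8 of 12 fits that left out 1 library. Serpinh1, the collagen chaperone, was abundant in every library, from 98.66 to 338.43 TPM. Among 4 tested secretion genes Sec24d, a coat protein of the vesicles that carry procollagen, rose 2.52-fold with AA+2i (log2 1.34 ± 0.28, adjusted p = 0.0133, not called without AA+2i A or when only DMSO and AA+2i were fitted), from 3.31, 2.83 and 4.06 TPM to 8.90, 7.22 and 6.50 TPM.

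Tll1, a protease that trims procollagen ends, rose 11.2-fold with 2i (log2 3.49 ± 0.37, adjusted p = 0.000618) and 4.51-fold with AA+2i (log2 2.17 ± 0.36, adjusted p = 0.00433). It had 0.38, 0.34 and 0.23 TPM in DMSO, 4.41, 2.53 and 2.58 TPM in 2i and 1.52, 1.40 and 0.87 TPM in AA+2i. Among 5 crosslinking enzymes Loxl4 fell with 2i (log2 −1.53 ± 0.27, adjusted p = 0.00907) and Loxl2 with AA+2i (log2 −0.97 ± 0.22, adjusted p = 0.0239). Loxl4 lost its call without 2i B and Loxl2 without DMSO A, DMSO B, AA+2i B or AA+2i C, with adjusted p up to 0.0542 and 0.107. Both were also lost when only the 2 conditions compared were fitted (adjusted p = 0.0715 for Loxl4 and 0.102 for Loxl2). With the GC correction Loxl1 and Loxl4 were called lower with 2i, beside 7.68% of all tested genes. It called Loxl1, Loxl2 and Loxl4 lower with AA+2i (10.7%) and Loxl1 higher with AA (2.52%). Without it Loxl1 was called only for AA+2i against AA (log2 −3.74 ± 0.68, adjusted p = 0.00822). Of the 5 tested fibril partners and the 7 tested collagen receptors, 0 were called in the comparisons with DMSO. With the GC correction Sparc, a fibril partner, and the receptors Ddr2 and Itgb1 were called lower with AA+2i (adjusted p = 0.0231, 0.016 and 0.0154), beside 10.7% of all tested genes.

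Of 7 tested partners of type IV collagen in basement membranes, 2 fell and 0 rose with 2i and with AA+2i. Of all tested genes, 2.83% fell and 1.59% rose with 2i, and 4.41% fell and 3.93% rose with AA+2i. The GC correction left the counts of partners as they were for 2i, beside 7.68% of all tested genes lower and 4.62% higher. It called 4 partners lower and 1 higher with AA+2i, beside 10.7% and 9.01% of all tested genes. The higher one was Nid2 (log2 0.82 ± 0.24, adjusted p = 0.0295), which was not called without the correction (1.16 ± 0.38, adjusted p = 0.0893). Lamb1, the laminin β1 chain, had 47.23, 102.03 and 42.46 TPM in DMSO, 9.49, 8.19 and 7.55 TPM in 2i and 6.89, 6.04 and 4.94 TPM in AA+2i, that is 6.49-fold and 9.05-fold lower (adjusted p = 0.00036 and 9.70e-05). Nid1, nidogen, which links laminin to type IV collagen, fell 3.95-fold with 2i (log2 −1.98 ± 0.27, adjusted p = 0.00257) and 3.04-fold with AA+2i (log2 −1.60 ± 0.27, adjusted p = 0.0045). Among degradation genes Timp3, an inhibitor of matrix metalloproteinases, fell 3.92-fold with 2i and 7.42-fold with AA+2i (adjusted p = 0.00795 and 0.000809). The falls of Lamb1, Nid1 and Timp3 against DMSO and the rises of Tll1 held in every alternative and without any 1 library.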

How the data were processed

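Single-end RNA sequencing of 12 libraries was read from the gene tables that the authors deposited. The authors trimmed and quality-filtered reads, aligned them to RefSeq genes of mm9 (Bowtie2 in the methods, Bowtie in the processing notes) and quantified them with RSEM 1.2.4 without strand. The deposited expected counts are estimates that are not normalized, the deposited TPM are scaled within each library, and the deposited FPKM served only to recompute 1 malformed TPM cell in AA C. Reads from overlapping or antisense genes cannot be told apart.

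Expected counts were rounded and fitted in edgeR 4.0.16 (R 4.3.3) with RLE factors and 1 mean per condition over the 12 libraries, with 8 residual degrees of freedom. Genes reaching 10 counts in 3 or more libraries were tested by the quasi-likelihood F test, with Benjamini-Hochberg adjusted p below 0.05 called over all 13400. EBSeq, which the study used, was not installed. Standard errors were taken from each log2 fold change and its F statistic (change over root F). Alternatives were TMM factors, DESeq2 1.42.0, no count filter, limma 3.58.1 run on log2(TPM + 1), the replicate letter as a block, GC correction (a loess curve of span 0.4 per library, as an offset), both together, only the 2 conditions compared, and each library left out. GC content was known for 99.3% of tested genes and all 26 tested members. Of the pathway list, Mia3 was not found among the symbols and was not analysed here. The fits were tested on simulated data.

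The members and gene lists were chosen with earlier results of these data known. Members named are those called in any comparison, the 4 most abundant of each class and the 2 of largest fold change in each comparison with DMSO, 16 in all, and pathway genes called against DMSO, at most 3 per role. Others were named only for pairing, position or a defining role, after their values were seen. Coding features are of the GENCODE transcript with the longest coding sequence in each gene.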

Additional observations from a re-analysis of the deposited data

How the results depend on the processing

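Leaving out each library in turn gave 0 to 1 members higher and 1 lower with 2i against DMSO, 0 to 3 higher and 0 to 2 lower with AA+2i against DMSO, 1 to 3 higher and 1 to 2 lower with AA+2i against AA, and 0 in each direction for AA against DMSO, AA+2i against 2i and the interaction. The libraries whose removal ended each call are named beside it, except that Col4a5 with AA+2i against DMSO lost its call without DMSO A, AA+2i A, AA B, AA+2i B, DMSO C or AA+2i C (adjusted p up to 0.119). Col12a1 against AA kept its call only without DMSO B or 2i A, and Col28a1 against AA only without DMSO A or DMSO B (adjusted p up to 0.18 and 0.208). P4ha1 against DMSO kept its call only without AA A, DMSO C, AA C or 2i C (adjusted p up to 0.192). For the alternative fits of all 12 libraries, a direction not named below kept the count of the edgeR fit given above. DESeq2 called 2 members higher with 2i, 2 lower with AA+2i against DMSO and 1 higher against 2i. With limma on log2(TPM + 1), 1 was higher and 0 lower with AA+2i against DMSO, and 2 were higher and 1 lower against AA, as without a count filter. With only DMSO and 2i fitted 0 were higher, and with only DMSO and AA+2i 1 was higher and 0 lower. The GC correction gave 0 higher and 1 lower with AA, and 3 higher and 1 lower with 2i. For AA+2i it gave 2 higher and 5 lower against DMSO, 1 higher and 1 lower against 2i, and 3 higher and 4 lower against AA. The letters A, B and C were checked as pairs. Deviations from the condition means correlated between libraries of the same letter with a mean of 0.401 (−0.588 to 0.894, 18 pairs). Between libraries of different letters the mean was −0.196 (−0.827 to 0.769, 36 pairs), so the ranges overlapped widely. The deviations sum to 0 within each condition, so a same-letter mean above 0 pulls the different-letter mean below 0. The 2 means are therefore not separate observations. Of 12 libraries, 9 were closest to their own letter, a hint from the data and not from the design. With the letter as a replicate block 1 member was lower with AA, 2 were higher with 2i, 3 higher and 3 lower with AA+2i against DMSO (the latter Col12a1, Col2a1 and Col6a6), 1 higher against 2i, and 3 higher and 3 lower against AA. The block and the GC correction together gave 1 higher and 3 lower with AA, 4 higher with 2i, 5 lower with AA+2i against DMSO, 1 higher and 5 lower against 2i, and 5 higher and 4 lower against AA. Genes with unadjusted p below 0.05 by the quasi-likelihood test also became more. For AA+2i against DMSO they went from 3325 to 6201 with the block and 6221 with both. For AA they went from 1263 to 2351 and 3490, so these member counts are not read as particular to collagens. No share of all tested genes is set beside the counts of the other alternatives here. No called log2 fold change reversed under any alternative, and the cause of lost calls was not tested. The mean summed TPM without the most abundant gene of a class moved by more than 1 SD in 5 cases, to 3.43 (AA) and 4.94 (AA+2i) for fibrillar, 19 (AA+2i) for type IV, and 12.2 (AA) and 11 (AA+2i) for other collagens. The same alternatives were applied to the named pathway genes after the data were seen. Counts below 10 in most libraries, as for Col28a1 and Col4a6, limit what can be resolved.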
